A study of Mus musculus with 4 samples.

Results

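The Jun and Fos proteins are the subunits of AP-1, a dimeric transcription factor. They were examined here in mouse NIH3T3 fibroblasts with and without tetracycline, whose withdrawal switches on the kinase PKR per the labels. The members were all probe sets whose single gene symbol in the platform annotation was Jun, Junb, Jund, Fos, Fosb, Fosl1 or Fosl2. This gave 9 of 13057 probe sets, 2 of 6523 on the first array type and 7 of 6534 on the second, marked MB in the sample titles. They covered 6 of the 7 genes, of 6137 named genes on both types, since Fosb had no such probe set, so its expression was not analysed here. Both groups were the same stable line, in which wild-type PKR stands behind a promoter that tetracycline represses. In the withdrawn group tetracycline had been removed from the medium for 5 h. The control group was grown with tetracycline at 1 µg/ml in DMEM with 5% fetal calf serum. NIH3T3 is an immortalised line of embryonic fibroblast origin, the labels describe 1 inducible line, and the species of its PKR transgene is not named. Each group had 1 array of each type, so no difference has a replicate check and no p-value was computed.

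AP-1 is a pair of basic leucine zipper proteins that grips DNA as a dimer. Jun proteins (Jun, Junb, Jund) pair with themselves or with a Fos protein, whereas Fos proteins (Fos, Fosb, Fosl1, Fosl2) need a Jun partner. In fibroblasts Fos and Junb are classic immediate early genes, transcribed within minutes of serum or stress and quickly shut off, while Fosl1 and Fosl2 accumulate later and Jund is made more steadily. Kinases of the JNK, ERK and p38 pathways phosphorylate the subunits and the factors bound at their promoters. PKR, the product of Eif2ak2, senses double-stranded RNA and slows translation by phosphorylating eIF2 alpha.

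The sequences upstream of 3 members are shown, Jun and Junb because both were higher after withdrawal, and Fos because it read near background. Fosl2 was also higher, and its sequence is not shown. The marked stretches are matches of letters, and no link between them and the values was tested. RefSeq promoter windows of GRCm38.p6 were found for 6 of the 7 genes, all except Fosl1. Each sequence covers the 250 bases before the annotated start, on the strand of the gene. Capitals mark matches on either strand to 6 motifs spelled in letters and to the CArG box, the site of serum response factor. The CArG box was searched as CC, then 6 bases that are each A or T, then GG.
Jun, chr4:95052223-95052472, minus strand: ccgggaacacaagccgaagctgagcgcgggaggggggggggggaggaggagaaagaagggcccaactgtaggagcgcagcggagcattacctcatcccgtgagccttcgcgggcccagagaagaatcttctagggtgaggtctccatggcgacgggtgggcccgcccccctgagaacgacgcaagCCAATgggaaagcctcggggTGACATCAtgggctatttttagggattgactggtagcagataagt
Junb, chr8:84978749-84978998, minus strand: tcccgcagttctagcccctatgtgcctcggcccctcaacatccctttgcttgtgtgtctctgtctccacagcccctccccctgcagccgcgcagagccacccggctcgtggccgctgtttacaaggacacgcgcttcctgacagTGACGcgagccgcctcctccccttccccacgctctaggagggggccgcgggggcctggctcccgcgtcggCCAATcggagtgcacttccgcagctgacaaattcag
Fos, chr12:85473640-85473889, plus strand: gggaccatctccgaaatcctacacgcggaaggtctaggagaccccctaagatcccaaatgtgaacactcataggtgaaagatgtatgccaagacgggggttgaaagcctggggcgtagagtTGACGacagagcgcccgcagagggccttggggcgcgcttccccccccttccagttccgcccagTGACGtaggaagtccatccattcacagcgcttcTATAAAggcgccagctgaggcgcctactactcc

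In the Jun window the variant AP-1 element TGACATCA lay 45 to 38 bases before the start. It is the known element through which Jun protein acts on its own promoter, and 2.93% of 32851 RefSeq windows of the same length held it. A CCAAT box lay 65 to 61 bases before the Jun start and another 36 to 32 bases before the Junb start. CCAAT was present in 33.8% of all windows. The core of the cAMP response element, TGACG, lay 106 to 102 bases before the Junb start and was also found in the Fos window, at 129 to 125 and 66 to 62 bases, and in the Fosb window at 60 to 56 bases. It was present in 17.8% of all windows. The TATA box letters TATAAA were found 33 to 28 bases before the Fos start, and in 12.4% of all windows. No member window held the consensus AP-1 site TGACTCA (4.46% of all windows), the full cAMP response element TGACGTCA (1.55%) or a CArG box (1.47%). Only the 250 bases before each start were searched, so sites farther upstream, such as a more distant CArG box, could not be found. The full element contains the core, so matches to these 2 motifs overlap. No match of any of the 7 motifs was found in the Jund and Fosl2 windows.

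The deposited tables give a linear intensity for each probe set. Probe sets differ in how brightly they report the same amount of RNA, so the intensities of different probe sets were not set against each other. Measured probe sets are those above a floor on both arrays of their type, set at the 25th percentile of all values (130 for the first type, 80.0 for the MB type). A stricter control floor was the 95th percentile of 39 bacterial and yeast control probe sets (281.5 and 340.4). On the MB type, 14 of these 39 exceeded the 25th percentile floor on the withdrawn array and 17 on the tetracycline array. Trimmed mean intensities of the 2 arrays differed by 0.042% for the first type and by 0.067% for the MB type. As a gauge of RNA quality, the 3' over 5' ratio of the beta-actin and Gapdh control probe sets ranged from 0.711 to 1.05 over the 4 arrays. The probe set of Eif2ak2, which may not detect the transgene, read 663.6 after withdrawal and 643.3 with tetracycline. Of 19 fibroblast markers on the arrays, 17 were measured, and all 17 were above the control floor. The 17 included Col1a1, a chain of type I collagen, and S100a4. Lum and Postn did not pass the 25th percentile floor on both arrays.

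Of the 9 member probe sets, 7 were measured, and all 7 were also above the control floor on both arrays. These 7 were higher after withdrawal, with log2 changes of withdrawn over tetracycline between 0.26 and 1.52 and a median of 0.82. Over all 8762 measured probe sets the median was 0.0073, and 50.7% were higher. Junb, and Fosl1 on the MB type, passed 2-fold. The other 2 member probe sets, both for Fos, did not exceed the floor with tetracycline.

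**Figure D1:**
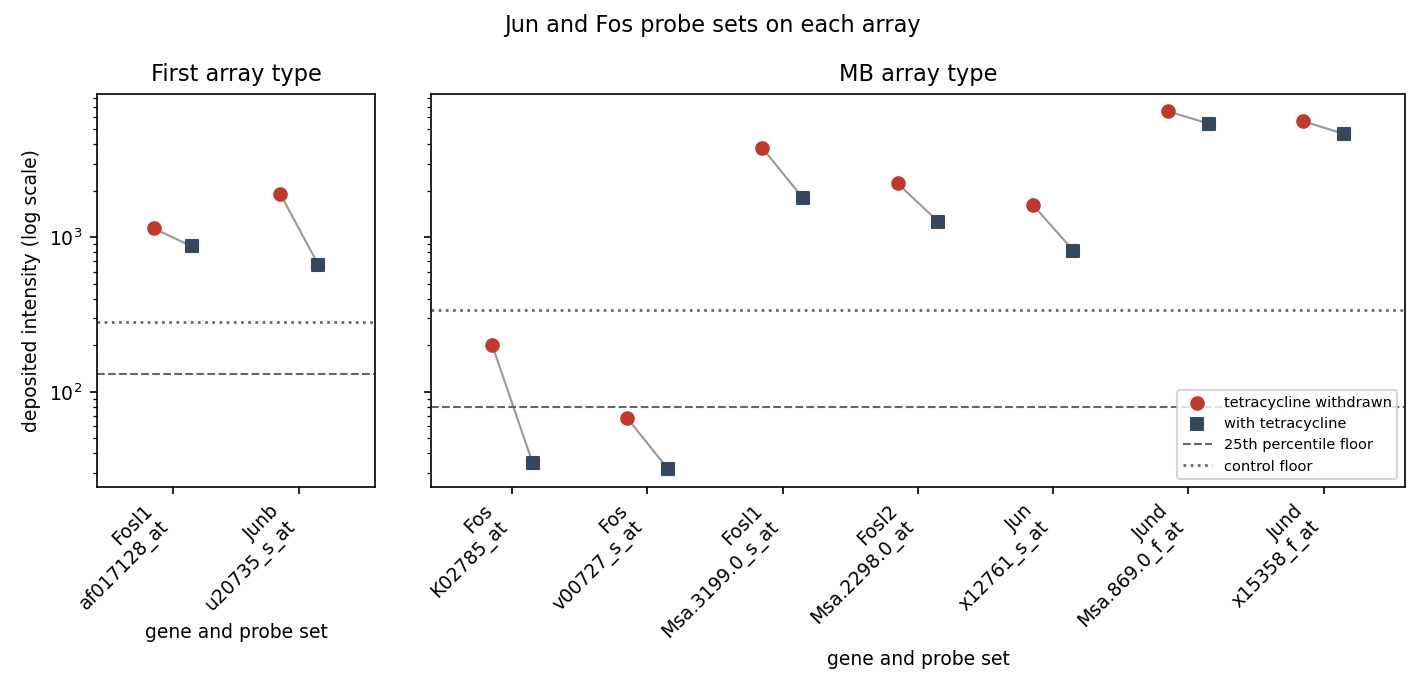
Deposited intensity (log axis) of the 9 subunit probe sets on the first array type (left panel) and the MB type (right panel). Circles are the withdrawn array and squares the tetracycline array, 1 array each, and the lines are the 25th percentile floor (dashed) and the control floor (dotted). The circle is above the square for each probe set, and both Fos probe sets lie below the control floor.

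Of the Jun proteins, Junb was read on the first type only, and Jun and Jund on the MB type only. Their changes were therefore not ranked against each other. Junb, an early response subunit that can oppose Jun in the control of cell division, read 1903.8 after withdrawal and 665.3 with tetracycline on the first type. This was a 2.86-fold higher value, with a log2 change of 1.52. It ranked 53 among 4402 measured probe sets of the type, so that 1.18% had a larger upward change. For each member a spread was computed as the scaled median absolute deviation of log2 change among the 200 probe sets closest to it in mean level. It mixes probe noise with real differences and cannot stand for the error between replicates. For Junb the spread was 0.41, and none of those 200 probe sets had a larger change.

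Jun, the subunit that JNK phosphorylates, read 1621.8 after withdrawal and 819.8 with tetracycline on the MB type. The withdrawn value was 1.98-fold higher, just under the 2-fold limit, with a log2 change of 0.98 and a spread of 0.39. Of the 200 probe sets nearest in level, 4 had a larger change.

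Jund, the Jun protein that is present in resting fibroblasts and slows their growth, was represented by 2 probe sets on the MB type. The first read 6530.7 after withdrawal and 5439.1 with tetracycline. The second read 5629.9 after withdrawal and 4671.9 with tetracycline. Their log2 changes of 0.26 and 0.27 differed by 0.0052 and were smaller than their spreads of 0.30 and 0.30. The letter f in the names of both marks probes that can also bind related transcripts, so the 2 are not independent readings of Jund. Whether the probe sets of the other members also bind further transcripts was not tested.

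The Fos proteins that were measured on both arrays were Fosl1 and Fosl2, which encode Fra-1 and Fra-2 and lack the strong activation domain of Fos. Fosl1 had a probe set on each array type. On the MB type it read 3776.4 after withdrawal and 1791.6 with tetracycline, a 2.11-fold higher value with a log2 change of 1.08 and a spread of 0.31. On the first type it read 1141.1 after withdrawal and 873.9 with tetracycline, 1.31-fold higher with a log2 change of 0.38 and a spread of 0.41. Both readings were higher after withdrawal, but they differed from each other by 0.69 on the log2 scale, more than their joint spread of 0.51 (the root of the summed squares). Whether both arrays of a group were hybridised with 1 RNA preparation is not stated. Fosl2 read 2230 after withdrawal and 1262.3 with tetracycline on the MB type. The withdrawn value was 1.77-fold higher, with a log2 change of 0.82 and a spread of 0.36.

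Fos itself, the founding immediate early gene of the family, was at background with tetracycline. Probe set K02785_at read 202.5 after withdrawal and 34.8 with tetracycline. Against the floor of 80.0 its withdrawn value was at least 2.53-fold higher, but both values were below the control floor of 340.4, and at that floor no fold can be given. Of 39 bacterial and yeast controls, 6 read at or above 202.5 on the withdrawn array and 6 on the tetracycline array. Of 1680 probe sets at or below the floor with tetracycline on this type, 11.8% reached 202.5 or more after withdrawal. The second Fos probe set, v00727_s_at, read 67.7 after withdrawal and 31.8 with tetracycline, below the floor on both arrays. A difference in Fos was therefore not detectable above the control signal on these arrays.

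**Figure D2:**
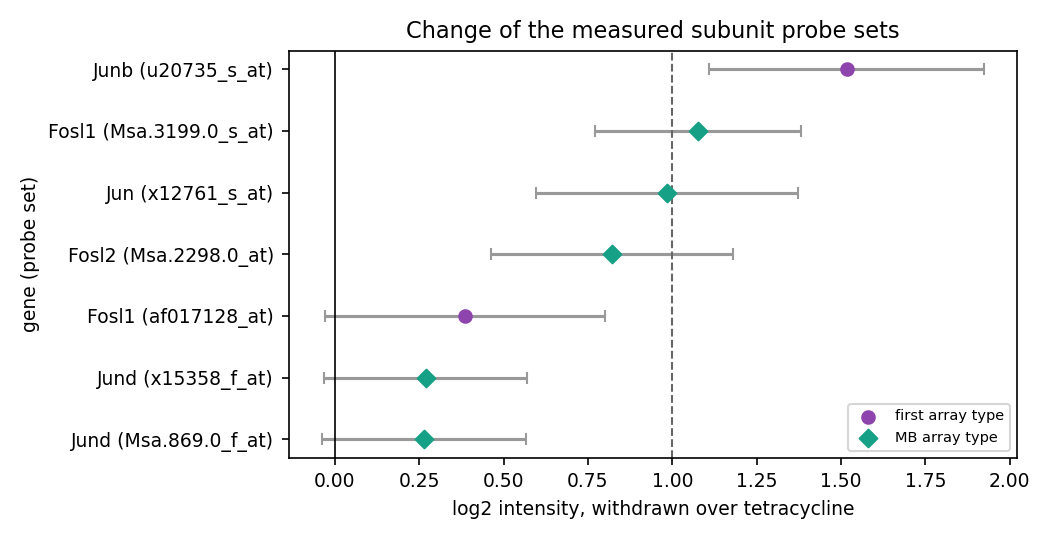
Log2 intensity of withdrawn over tetracycline for the 7 measured subunit probe sets, with circles for the first array type and diamonds for the MB type. Bars are the spread among the 200 probe sets nearest in level, not a replicate error, and the dashed line is 2-fold. Junb and the MB probe set of Fosl1 lie past 2-fold, and the bars of both Jund probe sets and of Fosl1 on the first type reach 0.

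With the 2-fold limit, 1 of 2 member probe sets was higher on the first type, where 4.36% of all measured probe sets were higher by as much. On the MB type it was 1 of 5, against 8.46% of all. Above the control floor the counts of members were again 1 of 2 and 1 of 5, where 1.88% and 1.97% of all probe sets passed. None of the 7 was 2-fold lower, where 4.02% of all probe sets measured on the first type were, and 6.65% of those on MB arrays. The number of members is small, and they were chosen with earlier results of these data known, so these counts describe the family only.

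The subunits were also set against each other within an array type. On the MB type, 6 of 10 pairs of member probe sets differed in log2 change by more than their joint spread. Each of those pairs set Fosl1, Jun or Fosl2 against 1 of the 2 Jund probe sets, which are not independent, so they stand for 3 pairs of genes. The difference was 0.81 between Fosl1 and either Jund probe set. Jun exceeded the 2 Jund probe sets by 0.72 each, and Fosl2 exceeded them by 0.55 and 0.56. Fosl1, Jun and Fosl2 differed from each other by 0.092 to 0.25, within joint spreads of 0.47 to 0.53. On the first type Junb exceeded Fosl1 by 1.13, with a joint spread of 0.58. These differences have no test, since each rests on 2 arrays. The joint spread is no bound on probe effects, since the 2 Fosl1 probe sets also exceeded theirs across types, and their difference of 0.69 was larger than that of Fosl2 from Jund.

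**Figure D3:**
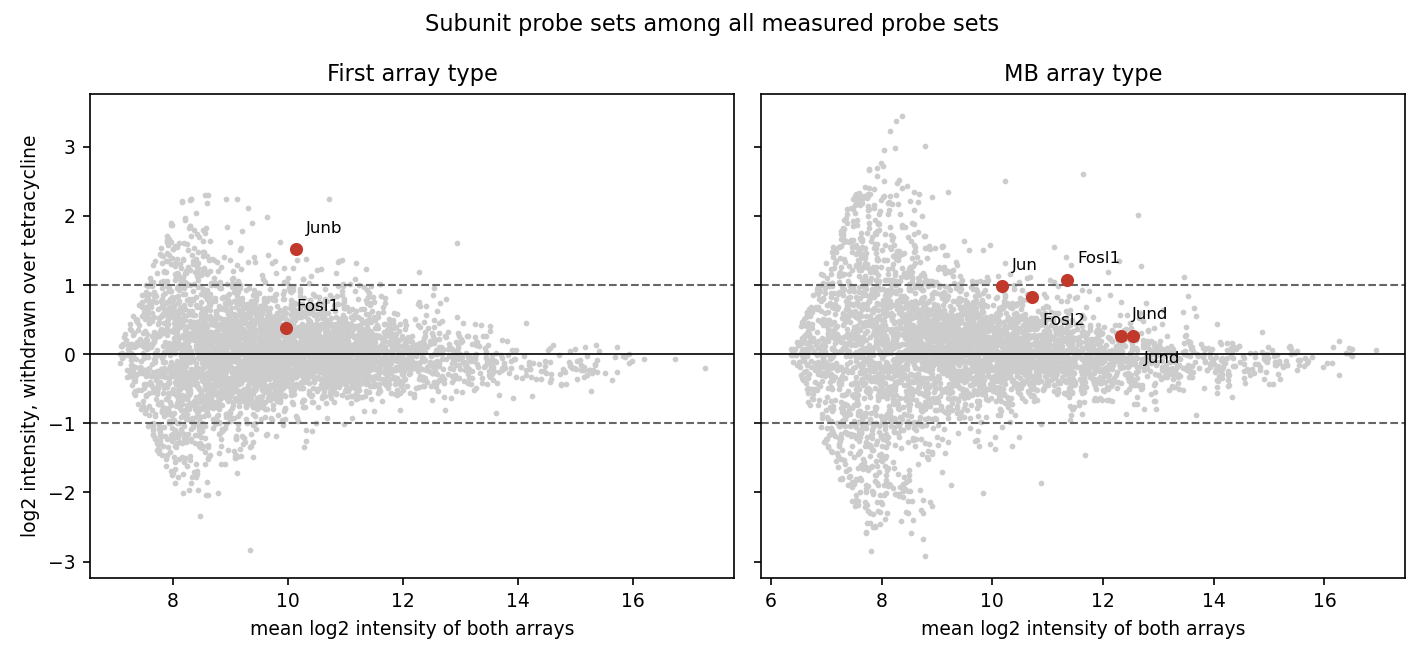
Log2 intensity of withdrawn over tetracycline against the mean log2 intensity of both arrays, for all measured probe sets (grey) and the subunits (red), by array type. Dashed lines are 2-fold in either direction. Junb stands at the upper edge of the probe sets of its level, whereas both Jund probe sets lie within theirs.

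For the 2 member probe sets past 2-fold, the named probe sets above the control floor with the nearest log2 change were listed, a likeness over 2 arrays only. Nearest to Junb were Wdfy2 (1.51), the pluripotency and early response factor Klf4 (1.44) and the snoRNA host transcript Snhg1 (1.61). Nearest to Fosl1 on the MB type were the bZIP factor Cebpg (1.08), the host transcript Snhg6 (1.07) and the serine kinase gene Pim1 (1.05).

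The other genes of the pathway were taken from lists, with each gene given the median log2 change of its measured probe sets on both types. Over all 4507 named genes measured the median was -0.0037, with 5.26% at least 2-fold higher and 4.22% at least 2-fold lower. On the same scale the 5 measured member genes had a median of 0.82. Their values were 1.52 for Junb, 0.98 for Jun, 0.82 for Fosl2, 0.73 for Fosl1 and 0.27 for Jund.

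Among dimer partners and related bZIP factors, 9 of 15 measured genes were higher and 6 lower. Their median was 0.24, and 0.46 for the 14 above the control floor. Atf3, a stress-induced partner of Jun proteins, was the only one past 2-fold. It read 743.1 after withdrawal and 368.4 with tetracycline (2.02-fold). Atf2, which pairs with Jun at the Jun promoter, read 748.9 after withdrawal and 428.9 with tetracycline (log2 change 0.80). Ddit3, which encodes CHOP, had 0.93 and Nfe2l1 0.80, while Batf, which competes with Fos for Jun partners, had -0.75.

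Of the factors that bind the Fos and Jun promoters, 10 of 13 measured genes were higher and 3 lower. Their median was 0.24, and 0.45 for the 11 above the control floor. The list shares 3 genes with the bZIP list. The myocyte enhancer factor Mef2a, which binds the Jun promoter, was past 2-fold, with 573.7 after withdrawal and 285.9 with tetracycline (2.01-fold). Its tetracycline value lay just above the control floor of 281.5. Stat3, which acts at the Fos promoter, read 8317.6 after withdrawal and 4976.6 with tetracycline on one probe set (log2 change 0.74). A second Stat3 probe set had 0.16, which gave the gene a median of 0.45. The Ets factor genes Ets1 (0.75) and Ets2 (0.55) were also higher. The ternary complex factor genes Elk3 (-0.56) and Elk4 (-0.51), whose products bind beside serum response factor, were lower.

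Kinases and phosphatases of the pathways to AP-1 were evenly divided, with 7 of 14 measured genes higher and 7 lower. Their median was -1.83e-05, and 0.20 for the 12 above the control floor. Only Dusp16 was past 2-fold. It encodes a phosphatase that inactivates JNK and p38, and read 2055.7 after withdrawal and 790.5 with tetracycline (2.60-fold). The ERK phosphatase gene Dusp6 had 0.83, and Rps6ka3, which encodes the ERK-activated kinase RSK2, had -0.62.

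Of 9 measured coregulators and turnover factors, 5 were higher and 4 lower, with a median of 0.23, and -0.046 for the 6 above the control floor. Smad3 was 2.48-fold higher, with a tetracycline value of 159.7 that was below the control floor. Pdcd4, which encodes an inhibitor of translation and of AP-1 activity, was lower, with 349.3 after withdrawal and 974.3 with tetracycline (log2 change -1.48). Of 2 probe sets for the mRNA decay factor Zfp36l2, the one on the MB type was past 2-fold lower (-1.05) and the other was near 0 (0.045).

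Genes widely cited as AP-1 targets went both ways, with 15 of 30 measured genes higher and 15 lower and a median of 0.0048. Mmp3 and Csf2 were on the arrays but not measured, so neither is in these counts. Mmp3, on the MB type, read 405.6 after withdrawal, above the control floor of 340.4. With tetracycline Mmp3 read 17.8, below the floor of 80. Csf2 was below the floor on all arrays. Hbegf, a ligand of the EGF receptor, was 2.01-fold higher, with 2834 after withdrawal and 1407.9 with tetracycline. Edn1 (1.90) and the stromelysin gene Mmp10 (1.54) were also past 2-fold higher, but both were below the control floor with tetracycline. Sprr1a, a cornified envelope gene, read 345.8 after withdrawal, just above the control floor, and 935.3 with tetracycline (-1.44). Of 2 measured probe sets for Ptgs2, which encodes cyclooxygenase 2, one was past 2-fold lower (-1.07) with both values below the control floor. The other, above that floor, read 2748.5 after withdrawal and 2637.1 with tetracycline (0.060). The metalloproteinase inhibitor gene Timp1 (-0.44), the metallothionein Mt2 (-0.51) and Hmox1 (-0.76) were lower without reaching 2-fold.

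Immediate early genes outside the family were higher in 21 of 24 measured genes and lower in 3, with a median of 0.42. The list shares 4 genes with the AP-1 target list, 1 with each of the other lists. Egr1, a zinc finger factor driven by the same serum response elements as Fos, read 3665 after withdrawal and 1475.5 with tetracycline (2.48-fold). Klf10 (2.51), Gadd45b (2.02), Klf2 (1.63), Klf4 (1.44), Nfkbia (1.31) and Atf3 (1.01) were also past 2-fold higher, of which Klf2 was below the control floor with tetracycline. Egr2 was on the MB type but not measured, so it is not in these counts. It read 413.1 after withdrawal, above the control floor, and 45.4 with tetracycline, below the floor of 80. Serum or stress can induce immediate early genes, and the labels state the serum content only for cells kept in tetracycline. The part of serum in the values of the subunits was not tested.

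**Figure D4:**
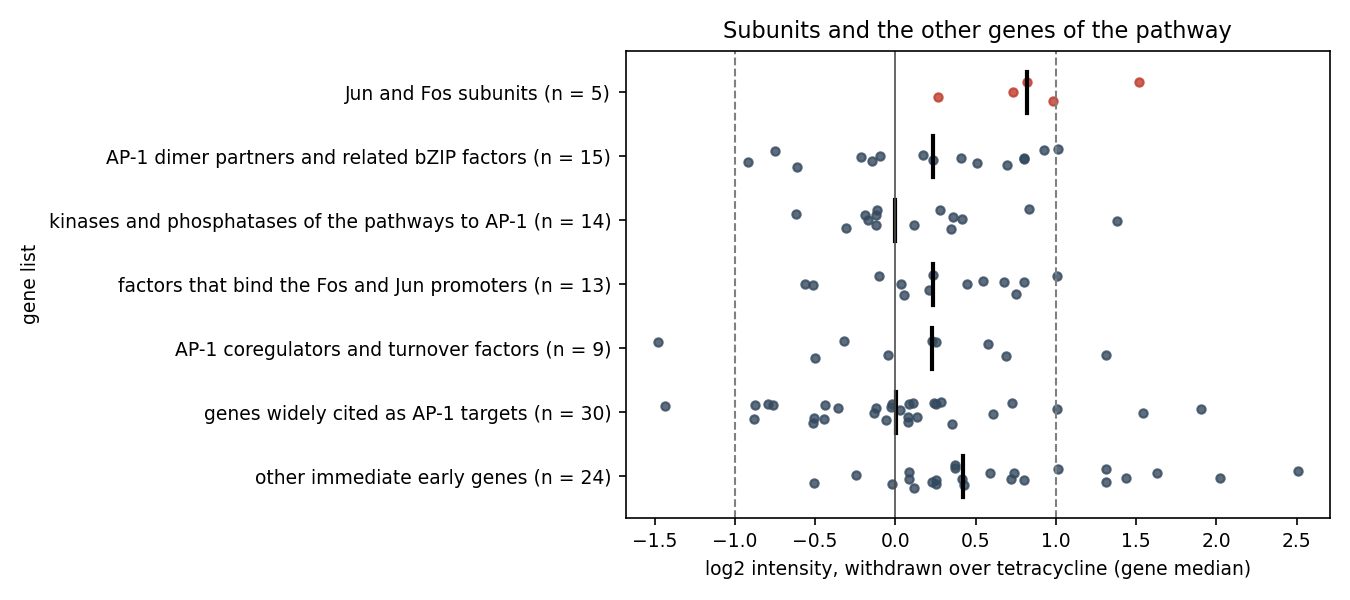
Log2 intensity of withdrawn over tetracycline for each measured gene (points, the median of its probe sets) in the Jun and Fos subunits and in 6 lists of other pathway genes. Bars are list medians and dashed lines are 2-fold. The medians are 0.82 for the subunits, 0.42 for other immediate early genes and 0.0048 for AP-1 targets.

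Fibroblast markers were lower in 13 of 17 measured genes, with a median of -0.25 and none past 2-fold. Summed over all probe sets of the list, measured or not, the intensity after withdrawal and with tetracycline was 100106 and 129100 on the first type, and 170064 and 207885 on the MB type. Of 9 measured leukocyte and macrophage markers, 6 were higher and 3 lower. Coro1a (1.20) and Fcgr3 (1.07) were past 2-fold higher and Cd3g (-1.33) and Cd79b (-1.13) past 2-fold lower, each with 1 or both values under the control floor. Of the 5 above that floor, Laptm5 (0.67), Lyz2 (0.38), Cd3e (0.24) and Cd14 (0.088) were higher and the pan-leukocyte marker Ptprc was lower (-0.96). Sums over all probe sets of this list after withdrawal and with tetracycline were 3813.3 and 3281 on the first type, and 3760.6 and 3529.1 on the MB type. Muscle markers were higher in 2 of 7 measured genes, and epithelial and endothelial markers in 1 of 2 each. Above the control floor were the muscle genes Ckm (0.23), Myod1 (-0.0071) and Myog (-0.47) and 1 probe set of the keratin Krt8 (-0.40). No endothelial marker was above it. Past 2-fold were Tnnt2 (1.20) and Chrna1 (-1.14) of muscle, the keratin Krt14 (1.15) and the endothelial receptor Tie1 (-2.16), each with 1 or both values under the control floor. The part of such differences in the subunits' values was not tested. In cultures measured in bulk, more cells with a transcript and more of it per cell cannot be told apart.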

How the data were processed

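Total RNA of NIH3T3 cells in 2 conditions was measured on 4 arrays of 2 types. The number of separate cultures is not stated. The deposited intensity values are linear, 1 per probe set and array. No source used here names the software or steps behind them. Since 2% trimmed means agreed within 5%, no further scaling was applied. These means ranged from 997 to 1000 over the 4 arrays. Whether the values had been scaled to a common mean before is not stated, so this closeness is no check on the arrays. Gene names came from the platform annotation, updated through Entrez identifiers to GRCm38.p6 symbols. The 61 control probe sets of each type were left out of all counts.

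The change was log2 of withdrawn over tetracycline within an array type, with no pseudocount. Values were called past the limit at 2-fold with both above the floor. With 1 array per condition there is no test, and the number of arrays limits the precision. Named are all members, Eif2ak2, genes of the pathway and marker lists with a probe set past 2-fold, and further list genes chosen after their values were seen. The members, lists and motifs were chosen with earlier results of these data known. Counting was tested on simulated data. Alternatives were 3 scalings, 3 floors, a 1.5-fold limit and 2 rules for several probe sets. Python 3.11.15, numpy 2.4.6, pandas 2.3.3, statsmodels 0.14.6 and matplotlib 3.10.9 were used.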

Additional observations from a re-analysis of the deposited data

How the results depend on the processing

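Under quantile normalization, median ratio scaling and removal of the level trend, the log2 changes of the 7 measured member probe sets kept their direction. Each moved by less than its spread. The changes ran from 1.47 to 1.53 for Junb, 0.91 to 0.96 for Jun and 0.77 to 0.80 for Fosl2. Under these 3 scalings the median over members was 0.91 to 0.96 on the first type, and 0.77 to 0.80 on the MB type and over both types. It was 0.82 and 0.90 over both types with the 2 rules for several probe sets. The floors could not move it, since the 7 probe sets lay above each of them. Members past the limit numbered 1 on each type, except 3 on the MB type at 1.5-fold. Counts over all probe sets are given as higher and lower on the first type, then higher and lower on the MB type. They were 192 and 177, 369 and 290 as reported. At the control floor they were 67 and 46, 54 and 21. At the lower floor they were 368 and 368, 619 and 534. At the higher floor they were 71 and 50, 165 and 108. At 1.5-fold they were 545 and 471, 769 and 560. These settings test fewer or more probe sets, or admit smaller changes. With quantile normalization the MB counts were 321 and 336 and with the level trend removed 313 and 339, so the excess of higher probe sets turned. No paired analysis was possible because each condition has 1 array of each type. Signal over background limits Fos, and the single array per condition limits each value.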
